A study of Mus musculus with 21 samples.

Results

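Glul, Oat, Cyp2e1, Lect2, Slc1a2, Rhbg, Axin2, Tbx3, Rgn and Lgr5 are genes of the hepatocytes that surround the central vein of the liver lobule. They were taken from the array files by name, as non-control spots whose gene name is one of these 10, which gave 15 probes of 55681 and 10 genes of the 19718 tested. The livers came from adult male C57BL/6J mice of a study of 24 mice, in which the authors excluded the arrays of 3. Every mouse ate a normal-fat diet for 3 weeks of adaptation. For the next 12 weeks the HF-Q group (10 livers) ate a high-fat diet with 0.33% (w/w) quercetin, a plant flavonoid, and the HF group (11 livers) ate the high-fat diet without it. All mice went without food for 2 to 4 hours before sacrifice. Each liver was labelled with Cy5 and hybridised to 1 array against an equimolar Cy3 pool of all samples, with no dye swap, so each value is a log2 ratio, the liver over that pool. Without a dye swap, a dye effect of a probe cannot be told apart from a true difference to the pool. Counts of livers above the pool are therefore read only between the groups. The groups ask what quercetin changes in livers on a high-fat diet. No group without the high-fat diet is used, so the values do not show what that diet does to these genes.

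Blood enters the liver lobule at the portal tracts and leaves at the central vein, and hepatocytes along this path express different genes. Endothelial cells of the central vein secrete Wnt ligands and R-spondins, and the resulting beta-catenin activity in nearby hepatocytes maintains the pericentral program. That program holds glutamine synthesis from ammonia that the periportal urea cycle has left, and much of xenobiotic metabolism. Periportal hepatocytes carry ureagenesis, gluconeogenesis and amino acid breakdown. In whole-liver RNA, fewer cells of a type and less RNA per cell cannot be told apart.

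The arrays of both groups were spread over 3 slides, and the share of probes well above background in Cy5 was 44.2% to 51.3%. All 11 measured genes of a hepatocyte list, among them Alb and Hnf4a, were well above background on 21 arrays. The liver HF-Q replicate 7, on slide 3, stood apart from the others. It had the lowest share of probes above background (44.2%) and the lowest median correlation of its log2 ratios with the other livers (r = 0.28, against 0.32 to 0.47 in the other 20), so the main values are also given without it. The mean log2 ratio of 7 measured pancreatic acinar genes was -0.81 to -0.14 in the HF-Q livers, and it was 1.67 and 2.30 in HF replicates 5 and 11. Without both of these HF livers the median log2 difference of the pericentral genes was -0.0998, against -0.13 in all 21 livers, and 9 of 10 were lower in HF-Q.

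The probes were 60 bases long, and 4 of the 10 genes had more than 1. In Cy5, 13 of the 15 were well above background on at least 10 arrays and 2 were above it on 0 arrays. These 2 were the second probes of Axin2 and Lgr5, and no probe was saturated on any array. The brightest kept probe stood for each gene. The first 30 bases of the probes of multi-probe genes are shown, because agreement between probes decides which values can be read as the gene.
Cyp2e1, gene probe: ttcctcgttcatgagacctgctgcccatca
Cyp2e1, second probe: accaccagcacaactctgagatatgggctc
Slc1a2, gene probe: aagcaactctaatcagtgtgtctatgccgc
Slc1a2, second probe: gtagaatgtttcagagtttcatgggtgccc
Slc1a2, dimmest probe: aacccagtttccagcattcagacatcagta
Axin2, gene probe: cttggtacaataattattgtaattaagaga
Axin2, dim probe: tcctgggggaacagattattattgctactc
Lgr5, gene probe: catgtaaatacgtagtgcttgtaaatagat
Lgr5, dim probe: acctctagtgcttatatagaaacttgtgtg
On mouse build NCBI37 the Cyp2e1 probes lie on the plus strand at chr7:147960628-147960687 and chr7:147956922-147956981. The Slc1a2 probes lie on the plus strand at chr2:102617752-102617811, chr2:102622252-102622311 and chr2:102626380-102626439. The gene probes of Axin2 and Lgr5 lie at chr11:108812034-108812093 (plus) and chr10:114887403-114887462 (minus). No annotation of this build was used, so the exon each probe sits in is not given. No probe of the 10 genes shared a run of 20 bases with any other probe of the array. The Cyp2e1 probes tracked each other across the 19 livers in which both had a value (r = 0.96). The Slc1a2 gene probe correlated with its other probes at r = 0.83 and 0.49 over 21 livers. The dim probes of Axin2 and Lgr5 correlated with the gene probes at r = 0.14 and 0.033, so the values of these 2 genes rest on 1 probe each.

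Of the 10 genes, 9 had a lower mean in HF-Q than in HF livers, with a median log2 difference of -0.13, and with median centring in place of loess 8 were lower at a median of -0.067. These counts rest on means. The HF-Q median lay above the HF median for Glul, Slc1a2, Tbx3 and Lgr5, and below it for the rest of the genes. The largest of the 10 differences was a 1.27-fold lower ratio of Rhbg, which was -0.23 on the log2 scale without HF-Q replicate 7, and 0 of the 10 passed an adjusted p of 0.05. Of all 19718 genes, 0 passed it (limma's moderated test, Benjamini-Hochberg over all genes), which is 0% of genes called, and 1169 were at an unadjusted p under 0.05, which is 5.93%. Over all 19718 genes the median difference was -0.0043 and 53.0% were lower in HF-Q. At an unadjusted p under 0.05 and lower in HF-Q stood 2 of the 10 genes, Lect2 and Rgn, against 2.91% of all genes, and higher in HF-Q stood 0 of the 10, against 3.02%. In 0 of the 10 genes were the groups free of overlap, against 0.00507% of all genes. HF-Q replicate 7 was the lowest of all 21 livers for Glul, Slc1a2, Rhbg, Oat, Cyp2e1, Rgn and Lect2, and ranked 3 from the lowest for Lgr5, 10 for Axin2 and 13 for Tbx3. Without it Glul differed by -0.027 and Slc1a2 by -0.046, 9 of 10 genes were lower, the median was -0.10 and 0 of the 10 were at an unadjusted p under 0.05, against 4.52% of all genes. Within slides 1, 2 and 3 the numbers lower in HF-Q were 7, 8 and 8, with medians of -0.11, -0.091 and -0.20. The slides held few livers of each group, and the only HF-Q livers on slide 2 were replicates 1 and 5.

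Glul, Slc1a2, Rhbg and Oat handle ammonia, glutamate and glutamine. None of these 4 genes was at an unadjusted p under 0.05, and the 2 diet groups overlapped in each of them.

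Glul encodes glutamine synthetase, which joins ammonia to glutamate in the last rows of cells before the central vein. Its probe (chr1:155756765-155756824, plus strand) had log2 ratios of -0.31 at the lowest, 0.021 at the median and 0.19 at the highest in HF-Q livers, and of -0.20, 0.013 and 0.37 in HF livers. The ranges lay over each other, and 5 of 10 HF-Q livers were below the HF median. HF-Q livers averaged -0.015 ± 0.16 (SD, n = 10), and HF livers averaged 0.045 ± 0.18 (SD, n = 11). The difference was -0.060 ± 0.071 (SE), with a 95% interval of -0.21 to 0.087 and an adjusted p of 0.983, and it turned to 0.0067 with median centring in place of loess.

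Slc1a2 encodes the glutamate transporter GLT-1, which brings glutamate into these cells. It ran from -0.29 through a median of 0.11 to 0.29 in HF-Q livers, and from 0.027 through 0.089 to 0.45 in HF livers. All 11 HF livers and 7 of 10 HF-Q livers were above the pool, while 4 of 10 HF-Q livers lay below the HF median. The difference was -0.087 ± 0.071 (SE; 95% interval -0.23 to 0.060; adjusted p = 0.971). The other probes differed by -0.087 ± 0.085 and -0.034 ± 0.061.

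Rhbg encodes an ammonium transporter of the Rhesus family. Its probe (chr3:88047265-88047324, minus strand) had the lowest value of any pericentral gene, -1.37 in HF-Q replicate 7. Its HF-Q median and highest value were -0.20 and 0.43, and its lowest, median and highest HF values were -0.67, 0.15 and 0.67. The values spread widely within both groups, 9 of 10 HF-Q livers lay below the HF median, and the residual SD of 0.45 was larger than that of 98.7% of genes. The difference of -0.35 ± 0.18 (SE; 95% interval -0.72 to 0.023) corresponds to a 1.27-fold lower ratio in HF-Q and did not pass (adjusted p = 0.866). It was 0.15, -0.24 and -0.89 on slides 1, 2 and 3, and -0.23 without HF-Q replicate 7, so its size depends on that liver and its sign on the slide.

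Oat encodes ornithine aminotransferase, which converts ornithine toward glutamate. Its probe (chr7:139749726-139749785, minus strand) read -0.69, 0.038 and 0.31 as the lowest, median and highest values in HF-Q livers, against -0.30, 0.26 and 0.57 in HF livers. Again 9 of 10 HF-Q livers lay below the HF median, although the ranges overlapped. The difference of -0.20 ± 0.11 (SE; 95% interval -0.44 to 0.027) did not pass (adjusted p = 0.873). It was negative on each slide, at -0.21, -0.27 and -0.23, and it was -0.13 without HF-Q replicate 7, a change of more than 1.5 times.

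Cyp2e1, Rgn and Lect2 belong to the metabolic and secretory side of the program. Cyp2e1 encodes the cytochrome P450 that oxidises ethanol, acetone and paracetamol. Its log2 ratios were -0.35, 0.32 and 0.55 (lowest, median, highest) in HF-Q livers and -0.11, 0.50 and 0.67 in HF livers. After HF-Q replicate 7 the next lowest HF-Q liver was at 0.13, and 8 of 10 HF-Q livers were below the HF median. The difference was -0.18 ± 0.10 (SE; 95% interval -0.38 to 0.032; adjusted p = 0.883), the second probe gave -0.14 ± 0.11, and the slides gave -0.26, -0.092 and -0.23. Without HF-Q replicate 7 it was -0.11.

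Rgn encodes regucalcin, a calcium-binding gluconolactonase of ascorbate synthesis. Its probe (chrX:20138932-20138991, plus strand) ran from -0.48 through -0.035 to 0.020 in HF-Q livers and from -0.19 through 0.057 to 0.21 in HF livers. All 10 HF-Q livers lay below the HF median, and the ranges overlapped between -0.19 and 0.020. The difference was -0.14 ± 0.064 (SE; 95% interval -0.27 to -0.0079), with an unadjusted p of 0.0387 and an adjusted p of 0.822. It had the same sign on slides 1, 2 and 3 (-0.079, -0.11 and -0.26) and was -0.097 without HF-Q replicate 7 (unadjusted p = 0.0901).

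Lect2 encodes a secreted hepatokine, leukocyte cell-derived chemotaxin 2. Its probe (chr13:56643829-56643888, minus strand) read -0.42, -0.073 and 0.32 in HF-Q livers (lowest, median, highest) and -0.13, 0.090 and 0.27 in HF livers. Of the HF-Q livers 2 of 10 were above the pool, against 10 of 11 HF livers, yet the highest value of all, 0.32, was that of HF-Q replicate 10. Below the HF median lay 8 of 10 HF-Q livers. The difference was -0.15 ± 0.065 (SE; 95% interval -0.28 to -0.014), with an unadjusted p of 0.0314 and an adjusted p of 0.810. On slides 1, 2 and 3 it was 0.043, -0.13 and -0.34, and without HF-Q replicate 7 it was -0.11 (unadjusted p = 0.0733).

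Axin2, Lgr5 and Tbx3 read the Wnt signal itself. Axin2 encodes a scaffold of the beta-catenin destruction complex and is a direct feedback target of the pathway. Its values were -0.31, -0.029 and 0.18 (lowest, median, highest) in HF-Q livers and -0.21, 0.040 and 0.33 in HF livers, which overlap almost in full. Below the HF median lay 7 of 10 HF-Q livers. The difference was -0.062 ± 0.068 (SE; 95% interval -0.20 to 0.079; adjusted p = 0.976). Dropping HF-Q replicate 7 gave -0.068, dropping HF replicate 5 gave -0.031 and dropping HF-Q replicate 8 gave -0.034.

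Lgr5 encodes a receptor for R-spondins. It was at -0.36, -0.019 and 0.27 in HF-Q livers and at -0.39, -0.15 and 0.36 in HF livers, and 3 of 10 HF-Q livers lay below the HF median. It was the 1 pericentral gene with a higher mean in HF-Q, by 0.043 ± 0.094 (SE; 95% interval -0.15 to 0.24; adjusted p = 0.999), and it was -0.017 on slide 3. With 1 array left out it was 0.0073 (HF-Q replicate 4 dropped) to 0.088 (HF replicate 7 dropped). Dropping HF-Q replicate 7 gave 0.077.

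Tbx3 encodes a T-box transcription factor that acts downstream of beta-catenin. Its probe (chr5:120134511-120134570, plus strand) ranged from -1.04 to 0.33 in HF-Q livers (median -0.33) and from -0.62 to 0.22 in HF livers (median -0.34). Its lowest liver was HF-Q replicate 10 and its highest HF-Q replicate 6, so the HF-Q group held both ends. Below the HF median lay 5 of 10 HF-Q livers. The difference was -0.12 ± 0.15 (SE; 95% interval -0.43 to 0.20; adjusted p = 0.989). On slides 1, 2 and 3 it was -0.46, -0.059 and 0.12. With 1 array left out it was -0.19 (HF-Q replicate 6 dropped) to -0.037 (HF-Q replicate 10 dropped). Dropping HF-Q replicate 7 gave -0.14.

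**Figure D1:**
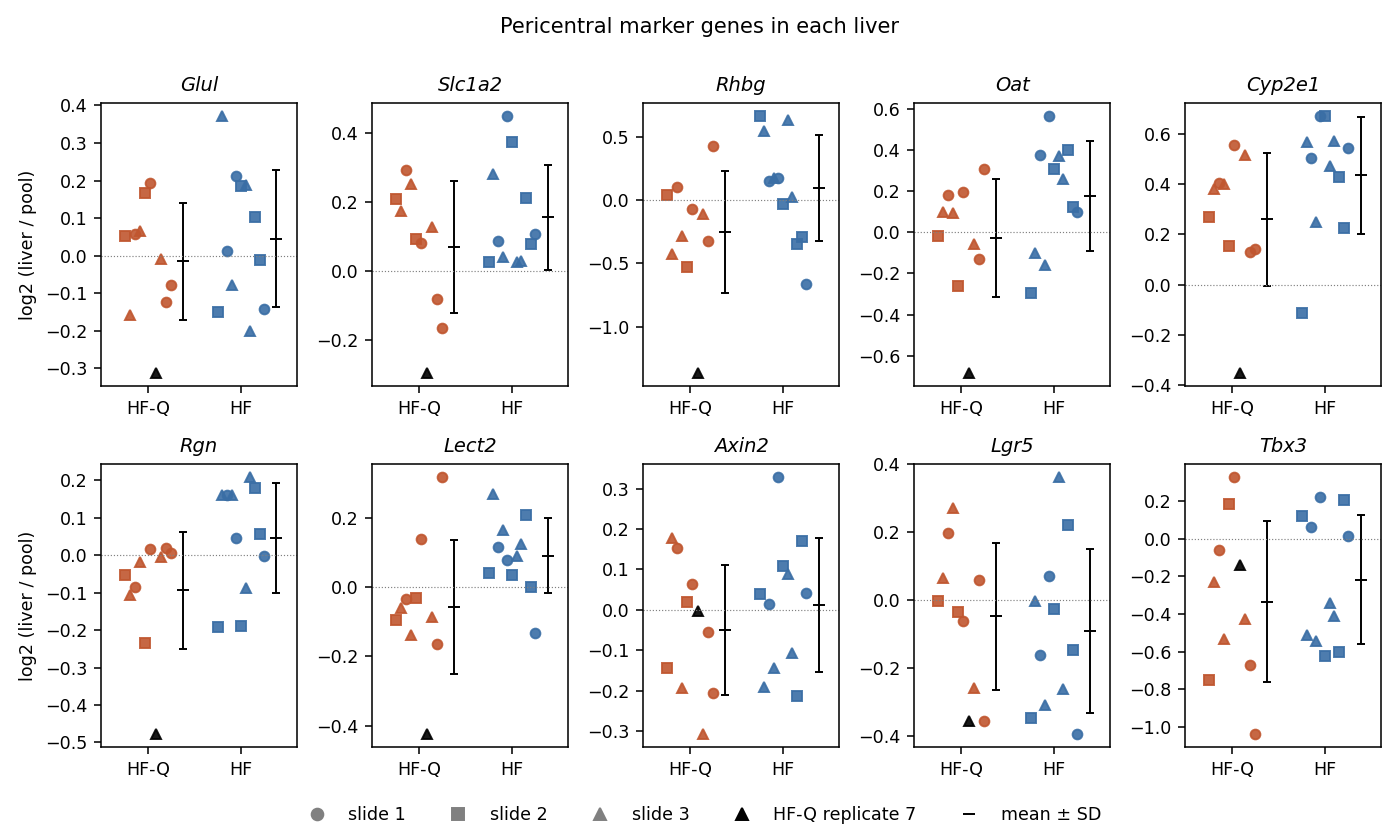
Log2 ratio of each liver to the pool (y axis) for the 10 pericentral genes, with HF-Q left of HF. Each point is a liver, its shape gives the slide, the black point is HF-Q replicate 7 and the bar is the mean ± SD (n = 10 and 11). HF-Q replicate 7 is the lowest of 21 livers for 7 genes and lies inside the range for Axin2 and Tbx3.

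**Figure D2:**
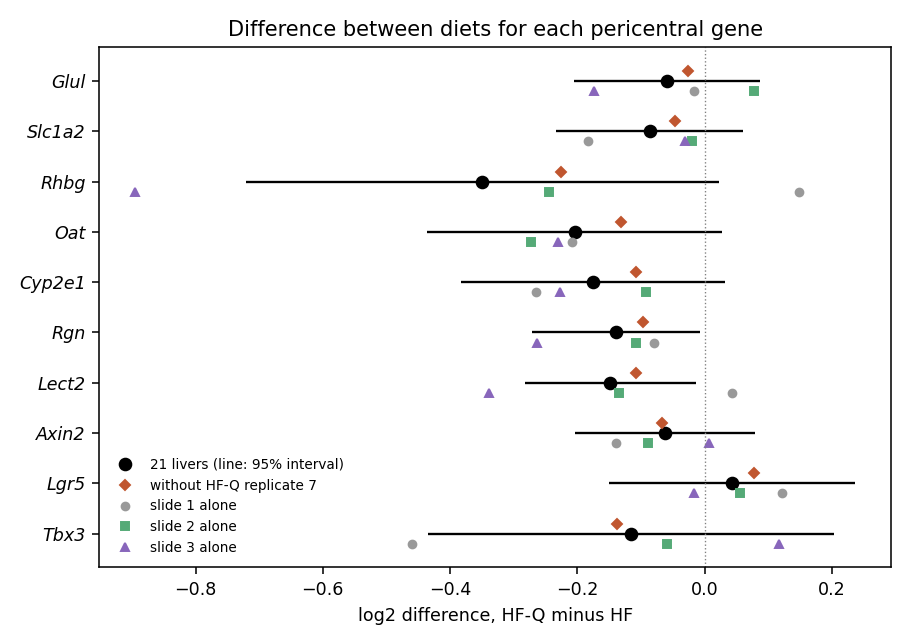
Log2 difference of HF-Q minus HF (x axis) for each pericentral gene. Black points with lines are the estimates from 21 livers with 95% intervals, orange diamonds leave out HF-Q replicate 7, and the small grey, green and purple symbols are slides 1, 2 and 3 alone. The intervals of Lect2 and Rgn exclude 0 before adjustment, and the slides disagree in sign for Rhbg, Lect2, Glul, Axin2, Tbx3 and Lgr5.

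The other genes of the lobule were read from lists. Of 20 other pericentral genes measured, 9 were higher and 11 lower in HF-Q, the median being -0.021, or -0.010 without HF-Q replicate 7 and 0.034 with median centring. These medians were nearer to 0 than those of the 10 markers under the same settings. The 3 of lowest p did not pass. They were Aldh1a1, a retinaldehyde dehydrogenase (-0.21 ± 0.075, SE), Nr1i3, the xenobiotic receptor CAR (-0.18 ± 0.064), and Cyp27a1, a sterol hydroxylase of bile acid synthesis (0.11 ± 0.052). Of 30 periportal genes, 11 were higher and 19 lower at a median of -0.043, and 0 passed. Dropping HF-Q replicate 7 gave -0.019, dropping HF replicate 3 gave -0.014, and the median was positive with median centring (0.020) and on slide 3 (0.039). Sult1c2, a sulfotransferase, differed by -0.31 ± 0.079, Uroc1, urocanase of histidine breakdown, by -0.20 ± 0.070, and Cdh1, E-cadherin, by 0.42 ± 0.14 (adjusted p = 0.515 to 0.752). Among 18 measured genes of ammonia and glutamine handling, 8 were higher and 10 lower. The lowest p there was that of Got2, the mitochondrial aspartate aminotransferase (-0.10 ± 0.037; adjusted p = 0.771). Of 5 midlobular genes 2 were higher and 3 lower, at a median of -0.037 that turned to 0.028 without HF-Q replicate 7, with Igfbp2, an IGF-binding protein, at 0.27 ± 0.12.

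The Wnt pathway was followed along its order, from ligand to target. Among 11 measured genes of the ligand list, which includes R-spondins, secretion factors and secreted antagonists, 6 were higher and 5 lower in HF-Q. Porcn, the acyltransferase that lipidates Wnt proteins, had the lowest p (0.20 ± 0.053, SE; adjusted p = 0.611). Of 10 receptors, 3 were higher and 7 lower at a median of -0.057 (-0.029 without HF-Q replicate 7), with Fzd1 at -0.14 ± 0.061. Of 18 core genes 8 were higher and 10 lower, and of 8 feedback targets 4 were higher and 4 lower. Over the 47 genes together the median was -0.012 (0.0030 with median centring), against -0.0043 over all genes, and 0 passed.

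Whether the pericentral genes move together was asked across the 21 livers. Of 45 pairs, 37 had a positive Pearson correlation, with a median r of 0.29 and a range of -0.29 to 0.77. Over all pairs of 19230 genes with a value on every array the median r was 0.0015, and 14.4% of all pairs were at or above the median of the pericentral genes. Much of this came with HF-Q replicate 7. Without it 30 of 45 pairs were positive, the median r was 0.15 and 30.1% of all pairs were at or above it. Spearman's median rho over 21 livers was 0.17. With group means subtracted, the median r was 0.23. By slide it was 0.35, 0.0016 and 0.51 on slides 1, 2 and 3, from 7, 6 and 8 livers, of which slide 3 holds HF-Q replicate 7.

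The correlation was uneven among the genes. The 7 genes of metabolism, transport and secretion (Glul, Slc1a2, Rhbg, Oat, Cyp2e1, Rgn and Lect2) had a median r of 0.48 among their 21 pairs, and 0.30 without HF-Q replicate 7. On slide 3 their median r was 0.68, and 0.19 without that liver. Their 21 pairs with Axin2, Tbx3 and Lgr5 had a median of 0.075, and 0.081 without that liver. Within these, Lgr5 was positive with all 7 genes, from 0.055 with Lect2 to 0.59 with Glul. The 3 pairs among Axin2, Tbx3 and Lgr5 had a median of 0.18 and ran from -0.084 for Tbx3 with Lgr5 to 0.67 for Axin2 with Tbx3. This grouping was made after the values were seen and is a description.

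**Figure D3:**
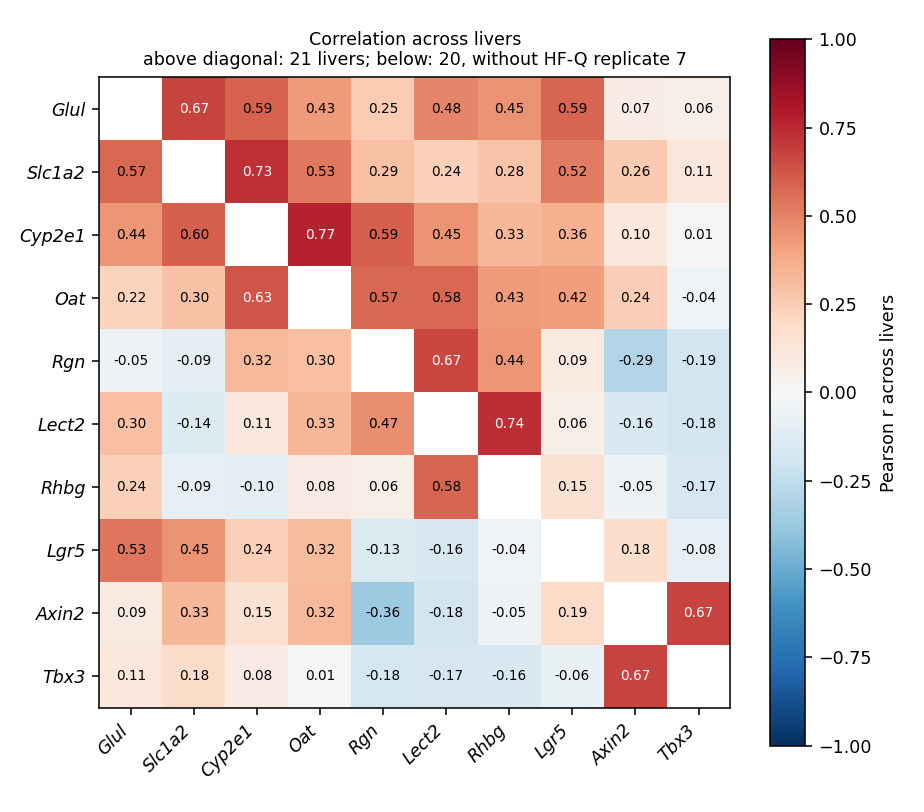
Pearson r across livers for each pair of the 10 pericentral genes, in colour from -1 (blue) to 1 (red). Cells above the diagonal use 21 livers and cells below it use the 20 without HF-Q replicate 7. Axin2 with Tbx3 reads 0.67 in both, and much of the red among Rgn, Lect2, Rhbg and the other metabolic genes is paler below the diagonal.

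Of the 45 pairs, 11 passed an adjusted permutation p of 0.05 by Pearson's r (two-sided, 100000 resamples, adjusted over the 45), all positive, and 6 of these also passed by Spearman's rho. Livers were shuffled without regard to diet or slide, so variation shared by many genes can enter these p-values. The share of all gene pairs that would pass was not taken, so the count does not show that such pairs are particular to the markers. Oat and Cyp2e1 gave r = 0.77 (permutation p = 1.1e-04, adjusted 0.0038) and rho = 0.59 (p = 0.00523, adjusted 0.0392). Both are strongly pericentral enzymes, and without the 2 livers farthest from the median of Oat r was 0.57. Cyp2e1 and Slc1a2 gave r = 0.73 (permutation p = 1.7e-04, adjusted 0.0038) and rho = 0.62 (p = 0.00334, adjusted 0.0392), with r = 0.79, 0.94 and 0.81 on slides 1, 2 and 3. Glul and Slc1a2, the synthetase and the transporter of its substrate, gave r = 0.67 (permutation p = 6.9e-04, adjusted 0.00776) and rho = 0.60 (p = 0.00433, adjusted 0.0392). Their slides gave 0.68, 0.71 and 0.68, and r was 0.57 without HF-Q replicate 7. Within HF these pairs, in the order given, had r = 0.70, 0.60 and 0.70. Within HF-Q without replicate 7 they had 0.32, 0.57 and 0.36.

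Lect2 and Rhbg gave r = 0.74 (permutation p = 2.9e-04, adjusted 0.00435) and rho = 0.61 (p = 0.00417, adjusted 0.0392). This pair did not keep its sign by slide, with 0.82, -0.098 and 0.92 on slides 1, 2 and 3. Glul and Lgr5 gave r = 0.59 (permutation p = 0.00532, adjusted 0.0266) and rho = 0.60 (p = 0.00478, adjusted 0.0392), and r = 0.52, 0.73 and 0.60 on the slides. Within HF their r was 0.75, and within HF-Q without replicate 7 it was 0.14. Of the 5 pairs that passed by r alone, Oat with Rgn, Oat with Lect2, Cyp2e1 with Rgn and Glul with Cyp2e1 had r = 0.16 to 0.40 without the 2 farthest livers, against 0.57 to 0.59 in all 21. For 3 of these pairs slide 2 holds neither of the farthest livers, and there Glul with Cyp2e1 gave 0.78, Oat with Rgn 0.67 and Oat with Lect2 0.58. Cyp2e1 with Rgn gave 0.22, 0.24 and 0.82 on slides 1, 2 and 3. Lect2 with Rgn gave 0.52 without its 2 farthest livers.

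Axin2 and Tbx3 gave r = 0.67 (permutation p = 9.0e-04, adjusted 0.0081) and rho = 0.64 (p = 0.0022, adjusted 0.0392). Neither gene was low in HF-Q replicate 7, and r was 0.67 without that liver and 0.67 without the 2 farthest livers. On slides 1, 2 and 3 it was 0.78, 0.61 and 0.71, and it was 0.65 within HF-Q and 0.70 within HF. The Axin2 gene probe was the dimmest of the gene probes, at a mean log2 intensity of 7.19 against 6.45 for its second probe. It was still well above background on 21 arrays. Axin2 had Tbx3 at place 26 among all genes ranked by r, and Tbx3 had Axin2 at place 40. Of the 8 measured feedback targets of beta-catenin other than Axin2 and the markers, 5 correlated positively with Axin2 and 5 with Tbx3, with medians of 0.12 and 0.10. Of all genes, 50.7% were positive with Axin2 and 52.6% with Tbx3. The highest of the 8, named after the values were seen, were Sp5 for Axin2 (r = 0.63) and Rnf43 for Tbx3 (r = 0.67). Sp5 is a transcription factor and Rnf43 a ubiquitin ligase, and both are Wnt targets. The lowest of the 8 was Myc for both, at r = -0.30 with Axin2 and -0.36 with Tbx3. Lgr5 correlated positively with all 11 measured genes of the ligand list, at a median of 0.27, against 50.4% of all genes that were positive with it. It is named here as the marker with the most positive genes on this list. Rhbg was positive with 3 of the 11, and Tbx3 and Lect2 with 4 each. Over all markers 71 of 110 such pairs were positive, at a median of 0.097. Of the 11 genes, 7 are Wnt ligands or R-spondins, Porcn and Wls serve Wnt secretion, and Dkk3 and Frzb are secreted proteins of the antagonist families. The highest was Wnt2, a ligand of central vein and sinusoidal endothelium (r = 0.52). Wnt2 was dim, at a mean log2 intensity of 6.79, and was well above background on 16 of 21 arrays. Frzb, Wnt9b and Wnt11 were also dim, at 6.89 to 6.96, and the brightest of the 11 was Rspo3 at 9.48. Values this close to background limit what these correlations can show. Of the 15 liver endothelial genes 12 were positive with Lgr5, at a median of 0.24. Axin2 was also positive with 12 of them, and over all markers 88 of 150 such pairs were positive.

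Promoter sequence of RefSeq (GRCm38.p6) was at hand for 6 of the 10 genes, and 250 bases before the start of transcription are shown for Oat, Cyp2e1, Slc1a2 and Lect2, which take part in the strongest pairs. Capitals mark a core word of the TCF/LEF factors that carry beta-catenin to DNA. The words searched, on both strands and with overlaps allowed, began with CTTTGAA as the first. The next word was CTTTGAT. Also searched was CTTTGTA. The last word was CTTTGTT.
Cyp2e1: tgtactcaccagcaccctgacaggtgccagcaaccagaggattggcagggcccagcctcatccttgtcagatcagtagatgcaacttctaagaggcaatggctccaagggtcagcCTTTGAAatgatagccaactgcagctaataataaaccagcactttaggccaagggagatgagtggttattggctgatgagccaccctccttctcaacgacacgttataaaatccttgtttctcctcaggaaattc
Slc1a2: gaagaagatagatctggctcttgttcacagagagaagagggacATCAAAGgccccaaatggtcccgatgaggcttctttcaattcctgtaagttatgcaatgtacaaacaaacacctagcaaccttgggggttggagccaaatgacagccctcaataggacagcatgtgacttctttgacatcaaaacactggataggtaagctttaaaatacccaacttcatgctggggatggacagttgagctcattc
Lect2: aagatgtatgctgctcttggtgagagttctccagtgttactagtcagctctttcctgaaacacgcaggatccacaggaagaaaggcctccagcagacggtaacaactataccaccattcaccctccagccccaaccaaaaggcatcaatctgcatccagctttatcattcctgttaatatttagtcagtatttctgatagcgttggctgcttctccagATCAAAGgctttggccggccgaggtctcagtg
Oat: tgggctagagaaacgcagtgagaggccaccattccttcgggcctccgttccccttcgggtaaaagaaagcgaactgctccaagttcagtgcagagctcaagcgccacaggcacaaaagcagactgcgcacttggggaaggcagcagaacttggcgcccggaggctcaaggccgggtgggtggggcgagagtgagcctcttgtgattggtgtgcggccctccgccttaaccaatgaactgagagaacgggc
On GRCm38.p6 these lie at chr7:140763569-140763818 (plus strand, Cyp2e1), chr2:102706188-102706437 (plus, Slc1a2), chr13:56548539-56548788 (minus, Lect2) and chr7:132576399-132576648 (minus, Oat). Cyp2e1 held CTTTGAA, whose first base is 135 bases before the start, and Slc1a2 and Lect2 held CTTTGAT on the other strand. The windows of Oat, Glul and Axin2 held none of the words, so 3 of 6 had a match, against 14.8% of 32851 promoter sequences. The windows with a match were 44.8% to 48.8% G and C, and those without were 60.0% to 69.2%. The 14.8% was not matched for base composition, and the part of composition in the count was not tested. A match is a string of letters in this window and not a binding site.

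The genes whose pattern across livers was most like each marker were ranked by Pearson r of log2 ratios with the group means subtracted, over 21 livers and all genes tested. These values are the highest of many and are a description. Oat was most like Mat1a, the liver enzyme that makes S-adenosylmethionine (r = 0.92), and Lhpp, a phosphatase of the other pericentral list (r = 0.85). Lhpp is also a neighbour of Oat, with probes at chr7:139822165-139822224 and chr7:139898005-139898064 on NCBI37. The part of this in their likeness was not tested. Rgn was most like Otc, ornithine carbamoyltransferase of the periportal urea cycle (r = 0.80), and Snap47 (0.77). Axin2 and Tbx3 had the same first gene, Sall1, a zinc-finger transcription factor (r = 0.84 and 0.82). Their next genes were Dot1l, a histone H3 methyltransferase, for Axin2 (0.77) and Gpr107 for Tbx3 (0.80).

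The 5 genes nearest to Glul were Dock3 (r = 0.89), Tnxb (0.84), Gopc (0.79), AW549542 (0.78) and Cul7 (0.78), none of which is in any zonation list used. Slc1a2 was nearest to Slc35f1 (0.87) and Ubr3 (0.81), and Rhbg to Dct (0.88) and Coa6 (0.84). Lect2 was nearest to Tbccd1 and Sh3glb2 (both 0.83), and Lgr5 to Chd1, a chromatin remodeller (0.83), and to a probe with no gene symbol (0.80). Without HF-Q replicate 7 these r values for Glul and Lgr5 were between 0.78 and 0.87, and the r of Otc with Rgn was 0.70.

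Cyp2e1 had the highest such value, with Exosc2 (r = 0.97) and Wdr34 (0.96). The probes under these 2 names were very bright, at a mean log2 intensity of 17.8 and 16.8, and each shares a run of 20 bases with at least 1 other probe of the array, shown in capitals.
Exosc2: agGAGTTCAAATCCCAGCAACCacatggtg
Wdr34: cctgaGGGCTGGTGAGATGGCTCAGcgggt
They lie at chr2:31536706-31536765 and chr2:29887219-29887278 on NCBI37. What these 2 probes read was not tested. The Cyp2e1 probe had a mean log2 intensity of 17.9. Of 62 other genes with a mean log2 intensity of at least 16.5, 96.8% lay above the pool on average, and the median ratio of these genes correlated with Cyp2e1 across livers at r = 0.70. HF-Q replicate 7 had the lowest such median (0.14). After each gene was set against the 200 genes nearest to it in intensity, Cyp2e1 differed between diets by -0.17 and the median r of the 45 pairs was 0.30. This step changed little. Loess by intensity had been run before it but had not levelled the bright end. The median ratio of the 62 bright genes was still 0.31. The level taken off had an SD across livers of 0.011 to 0.028, against 0.26 for the Cyp2e1 ratio. Cyp2e1 also ranked 12 in brightness, so most of its 200 genes were dimmer. The level taken off Cyp2e1 had an SD of 0.028. For the median of the 62 bright genes the SD was 0.064 in HF-Q and 0.054 in HF livers. The part of brightness in the Cyp2e1 values was therefore not tested by this step.

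The pericentral genes were then set beside genes of the periportal end of the lobule. In HF-Q livers the 10 pericentral genes averaged -0.055 ± 0.16 (SD, n = 10), against 0.075 ± 0.10 in HF livers (SD, n = 11). The 30 periportal genes averaged 0.0016 ± 0.11 in HF-Q livers and 0.040 ± 0.11 in HF livers. Across livers the 2 means correlated at r = 0.41 (rho = 0.44), and at 0.31 without HF-Q replicate 7, so they leaned the same way and not opposite ways. The mean of the 10 markers correlated with that of the 20 other pericentral genes at r = 0.60 (rho = 0.43), and at 0.49 without HF-Q replicate 7. Of the 300 pairs of 1 marker and 1 periportal gene, 202 were positive and 98 negative, with a median r of 0.15, and with the 20 other pericentral genes 152 of 200 were positive, with a median of 0.21. Without HF-Q replicate 7 these medians were 0.065 and 0.089. Glul and Rhbg were close to balance against periportal genes (14 and 15 of 30 positive), while Tbx3 was positive with 27 of 30, Axin2 with 23 and Cyp2e1, Rgn and Lgr5 with 22 each. Of all genes, 49.7% to 52.6% were positive with each of the 10 markers.

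**Figure D4:**
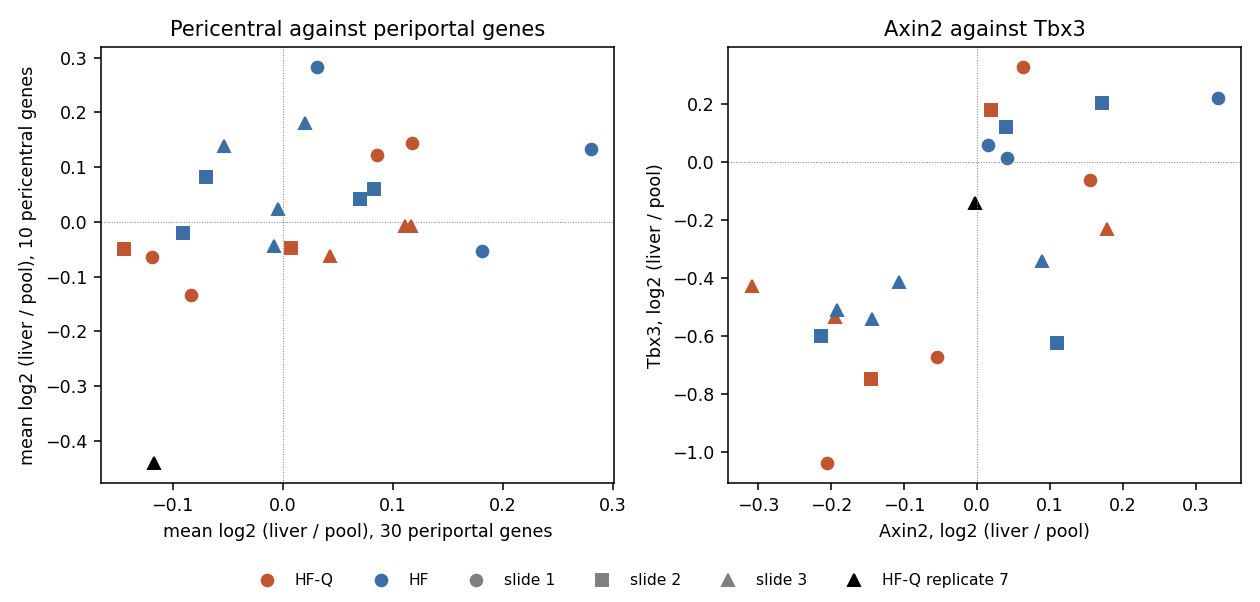
Left, mean log2 ratio of the 10 pericentral genes (y) against that of the 30 periportal genes (x) for each liver. Right, Tbx3 (y) against Axin2 (x). Orange is HF-Q, blue is HF, the shape gives the slide and the black triangle is HF-Q replicate 7, which lies alone at -0.44 on the left and among the other livers on the right.

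The pericentral mean minus the periportal mean was -0.056 ± 0.12 in HF-Q and 0.035 ± 0.15 in HF (SD, n = 10 and 11). In HF-Q it ran from -0.32, in HF-Q replicate 7, to 0.095, and in HF from -0.23 to 0.25, so the groups overlapped. In HF-Q replicate 7 the other pericentral and midlobular means were second lowest of the 21 livers, and the hepatocyte and periportal means ranked 3 from the lowest.

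Some general measures moved with the pericentral mean. Across the 21 livers it correlated with the share of probes above background at r = 0.59 (0.45 without HF-Q replicate 7), with the mean of 11 hepatocyte genes at 0.49 (0.44) and with the mean of 10 stellate cell genes at 0.52 (0.49). With 11 Kupffer cell genes it was -0.17 and with 7 lymphocyte genes -0.25, and 80 of the 110 pairs of a marker and a Kupffer gene were negative. The markers differed in this. Cyp2e1 was positive with 9 of the 11 Kupffer genes, Oat with 8 and Axin2 with 6, while Lect2 and Rgn were positive with 0. The pericentral mean correlated at 0.24 with the mean of 15 genes of liver endothelium, the cells that send the Wnt signal. These are descriptions over the same livers, and the part of RNA quality or of cell makeup in the pericentral values was not tested.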

How the data were processed

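For every array the authors deposited scanner files with the mean intensity and local background intensity of each spot in both dyes, without normalization, per the file headers. The files came from Agilent Feature Extraction 10.7.3.1, per the submitters' processing notes. A table of log2 values from the authors served as an alternative, and how they made it is not given in the sources.

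Background was corrected by normexp (offset 50) and the log2 ratio of Cy5 to Cy3 normalized by loess within arrays in limma 3.58.1 (R 4.3.3). Spots that were controls, uneven or outlying were left out, and spots of a probe were averaged. Probes whose Cy5 was well above background on 10 or more of the 21 arrays were kept (26291), and the brightest stood for a gene. Names were updated through RefSeq accessions for 27235 probes.

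The diets were compared by limma's moderated test, two-sided, with Benjamini-Hochberg adjustment over 19718 genes. Each array is a separate mouse, and the number of arrays limits the precision. The test was tested on simulated data. Pairs of genes were tested by permutation over livers. The named genes were the 10 members, up to 3 genes of lowest p per list, and the 2 genes most like each member (5 for Glul). The members and lists were chosen with earlier results of these data known. Alternatives changed background, normalization, reference channel, filter, probe choice, slide, replicate block, array weights and source of values, or left out single arrays.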

Additional observations from a re-analysis of the deposited data

Results flagged for a closer look

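HF-Q replicate 7 lay far below the other 9 HF-Q livers in 5 of the 16 HF-Q values checked, measured as its gap to the nearest liver over the whole range against the 95% critical value for 10 livers (0.466). Chance flags about 1 in 20 groups, and these values share genes and a liver. Cyp2e1 was at -0.35 there and next at 0.13 (gap 0.530 of the range), Rhbg at -1.37 and next at -0.53 (0.468), and Rgn at -0.48 and next at -0.24 (0.488). The mean of the 10 pericentral genes was -0.44 and next -0.13 (0.525), and the pericentral minus periportal mean was -0.32 and next -0.12 (0.477). The same array had the lowest share of probes above background, and the part of this in the values was not tested.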

How the results depend on the processing

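No gene passed in the comparison of 21 livers (0, with 1169 at an unadjusted p under 0.05). The count was 1 on slide 2 alone, 1 with array weights and 0 to 4 with 1 array left out, the 4 when HF replicate 2 and the 1 when HF-Q replicate 10 was dropped. With median centring 239 genes were at an unadjusted p under 0.05. The median difference of the 10 pericentral genes was negative under all alternatives run (-0.20 to -0.067, and -0.16 to -0.10 with 1 array left out). Their median pairwise r was 0.60 with median centring, 0.0016 on slide 2 and 0.51 on slide 3, and 0.15 to 0.40 with 1 array left out. The periportal median was -0.17 on slide 1. Signs turned for Glul with median centring (0.0067) and on slide 2 (0.077), for Lect2 (0.043) and Rhbg (0.15) on slide 1, and for Axin2 (0.0064), Tbx3 (0.12) and Lgr5 (-0.017) on slide 3. The cause was not tested. Over the scalings the median difference of all genes was -0.024 to 0.024. Same-numbered livers of the 2 groups did not deviate together (r = -0.34 to 0.16, and 0 of 10 best with their own number), so the numbers do not pair them. A replicate block over 10 and 10 livers gave 0 genes and a pericentral median of -0.12. The intensity centring and the removal of the 2 livers with acinar RNA were added after seeing the data. The second probes of Axin2 and Lgr5 were not well above background, so these genes have no check by another probe.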
